A study of Mus musculus with 12 samples.

Results

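The genes described here are 10 members of the leukaemia inhibitory factor (LIF) and interleukin-6 signalling family: the ligands Lif, Clcf1 and Il6, the receptor chains Il6st, Lifr, Osmr, Il6ra and Il11ra1, the transcription factor Stat3 and the feedback inhibitor Socs3. They were chosen by symbol from the 32285 genes of the deposited count table, and all 10 were among the 15229 genes with enough counts to be tested. RNA was sequenced from nucleus pulposus, the soft centre of a spinal disc, dissected from the tails of C57BL/6-129/SvEv mice, 12 animals in all at an age of 12 months and 1 per library. In 6 Opa1cKO mice the gene Opa1 had been deleted at 3 months with AcanCre, a Cre recombinase driven from the aggrecan gene and so active in disc and cartilage cells, and the other 6 mice were labelled WT. Every mouse of either genotype received tamoxifen at 100 mg/kg on 3 days, and 9 months passed between deletion and collection. OPA1 is a GTPase that fuses inner mitochondrial membranes and shapes cristae. The labels do not give which alleles or transgenes the WT mice carried.

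Cytokines of this family act through shared receptor chains. Each ligand brings gp130, the product of Il6st, together with a second chain: LIF with LIFR, oncostatin M with OSMR or LIFR, interleukin-6 and interleukin-11 with gp130 pairs recruited by IL6RA or IL11RA, and CLCF1 with CNTFR and LIFR. Bound receptors activate JAK kinases, which phosphorylate STAT3, and STAT3 in turn drives Socs3, whose product binds gp130 and shuts the signal off. In disc and cartilage these cytokines are studied for their part in inflammation and matrix turnover.

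Labelled sex and sex-linked reads did not match in 4 of the 12 libraries. WT 4 was labelled female but had Y-linked reads and almost no Xist, and WT 5, WT 6 and Opa1cKO 4 were labelled male but had Xist at the level of females and almost no Y-linked reads. Opa1cKO 6 stood apart in several genes below and WT 6 in Socs3 and the immediate early genes, so the calls and larger differences among members are given with and without them. Over all genes with enough counts, Opa1cKO 6 was also the library least like any other. Its nearest was Opa1cKO 4, at a chi-square of 191 per degree of freedom between their counts. For Opa1cKO 3, the next most distant library, the nearest was WT 4 at 133. Opa1 itself fell in every Opa1cKO library below every WT library, from 101.5 ± 17.3 to 40.6 ± 6.30 counts scaled to library size (CPM; mean ± SD, n = 6 each), with a fitted log2 difference of -1.22, an SE of 0.116 and an edgeR adjusted p of 3.05e-05. Library totals were 37268242 to 56618266 counts and gave no detectable difference between genotypes (two-sided exact permutation p = 0.502), and 1 CPM stands for 37.2 to 56.9 reads, depending on the library. The nucleus pulposus marker T was at 2719 CPM in WT and 2882 CPM in Opa1cKO, and Krt19 at 2097 and 2095 CPM, neither called. Of 15 listed nucleus pulposus and notochord markers, 14 were tested and 14.3% called, against 10.2% of all genes tested. None was higher and 2 were lower: Slc2a1, a glucose transporter (log2 fold change -0.78, edgeR adjusted p = 0.000839), and Cdh2, N-cadherin (-0.43, edgeR adjusted p = 0.0137). Throughout, CPM values are scaled by TMM factors, fold changes are Opa1cKO over WT, and a gene was called at an edgeR adjusted p below 0.05 in a fit that includes labelled sex.

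Of the 10 members, Lif and Clcf1 rose, Il6st fell and 7 were not called. Over all genes tested, 10.2% were called, 5.10% higher and 5.13% lower in Opa1cKO. WT and Opa1cKO ranges were fully separate for 2 members, Clcf1 and Il6st, against 6.41% of all genes tested. The median log2 fold change was 0.44 over the members and 0.01 over all genes tested. The members' median was 0.14 without Opa1cKO 6 and 0.73 without the 4 libraries whose sex-linked reads contradict their label. In bulk tissue, fewer cells that express a gene and less RNA of it per cell cannot be told apart.

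Upstream sequence was looked at because Socs3 is a textbook STAT3 target and because Lif and Socs3 varied most among the members. RefSeq promoter windows (build GRCm38.p6) were matched for 9 of the 10 members, all but Clcf1, and the 250 bases before each start were searched on both strands for TTCNNNGAA, the spacing bound by STAT factors, for its stricter form TTCCNGGAA, and for the AP-1 site TGANTCA, at which FOS and JUN proteins bind. The first motif was found in 1 of these members, Socs3, and in 7.02% of the 32851 windows of all genes. AP-1 matches were found in 2 members, Lif and Il6, and in 6.75% of all windows, and the strict STAT form in 0 members and 0.913% of all windows. Lifr and Il11ra1 had 2 windows each, so members are counted here and windows in the shares. All 250 bases of the Osmr window and 247 of the first Il11ra1 window are exonic in annotated transcripts of the same gene. The windows of Lifr, Osmr, Il11ra1 and Socs3 lie inside the annotated span of their gene. They precede a start within the gene and are not upstream of the whole gene. The match in Socs3 began 154 bases before the start and the match in Lif 228 bases before it. A match of letters is a description of the window and not evidence of binding. The Lif window is shown as chr11:4257318-4257556 on the plus strand, stopping before the first annotated exon, and the Socs3 window as chr11:117969367-117969616 on the minus strand, of which 77 bases are exonic in another annotated Socs3 transcript. Both run 5′ to 3′, with the AP-1 match of Lif and the STAT match of Socs3 in capitals.
Lif: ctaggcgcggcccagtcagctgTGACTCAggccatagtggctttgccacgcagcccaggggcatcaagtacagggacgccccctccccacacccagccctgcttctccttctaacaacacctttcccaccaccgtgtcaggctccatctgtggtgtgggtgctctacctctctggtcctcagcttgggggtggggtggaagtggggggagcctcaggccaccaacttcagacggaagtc
Socs3: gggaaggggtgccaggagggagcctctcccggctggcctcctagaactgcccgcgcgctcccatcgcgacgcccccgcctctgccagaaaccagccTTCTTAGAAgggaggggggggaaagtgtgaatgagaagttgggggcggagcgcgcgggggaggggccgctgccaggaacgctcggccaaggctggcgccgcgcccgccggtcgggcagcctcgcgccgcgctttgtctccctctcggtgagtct

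Clcf1, the cytokine that signals through the ciliary neurotrophic factor receptor, was higher in every Opa1cKO library than in any WT library. WT libraries held 8.84 to 14.9 CPM with a median of 13.1, and Opa1cKO libraries 17.4 to 28.4 CPM with a median of 24.2. The lowest Opa1cKO library, Opa1cKO 4, was still above the highest WT library, WT 4. The mean was 1.94 times as high in Opa1cKO, and the fitted log2 fold change was 0.94 (95% interval 0.63 to 1.25, SE 0.145, edgeR adjusted p = 0.00135). Clcf1 was called with any 1 of the 12 libraries left out. Clcf1 lies at chr19:4214238-4223490 (mm10, plus strand), and 8.17% of its exon bases are shared with the same-strand gene model AC109138.7.

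Lif, a cytokine named for inhibiting myeloid leukaemia cells and used to keep embryonic stem cells undifferentiated, was higher in 4 of the 6 Opa1cKO libraries than in any WT library. WT libraries held 2.05 to 3.99 CPM with a median of 2.63, and Opa1cKO libraries 2.66 to 15.9 CPM with a median of 5.53. The ranges overlapped: Opa1cKO 4 at 3.56 CPM and Opa1cKO 5 at 2.66 CPM lay inside the WT range, while Opa1cKO 6 at 15.9 CPM and Opa1cKO 1 at 9.40 CPM were the highest. The log2 fold change of Lif was 1.45 (95% interval 0.62 to 2.27, SE 0.382, edgeR adjusted p = 0.0303). The call was lost in 6 of the 12 fits that left out 1 library. Without Opa1cKO 6 the log2 fold change was 0.78 (edgeR adjusted p = 0.301). It was also lost, at fold changes of 1.31 to 1.58 on the log2 scale, without WT 1, WT 4, WT 5, WT 6 or Opa1cKO 1 (edgeR adjusted p from 0.0533 to 0.0823). Lif lies at chr11:4257557-4272514 (mm10, plus strand) and shares no exon bases with another gene.

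**Figure D1:**
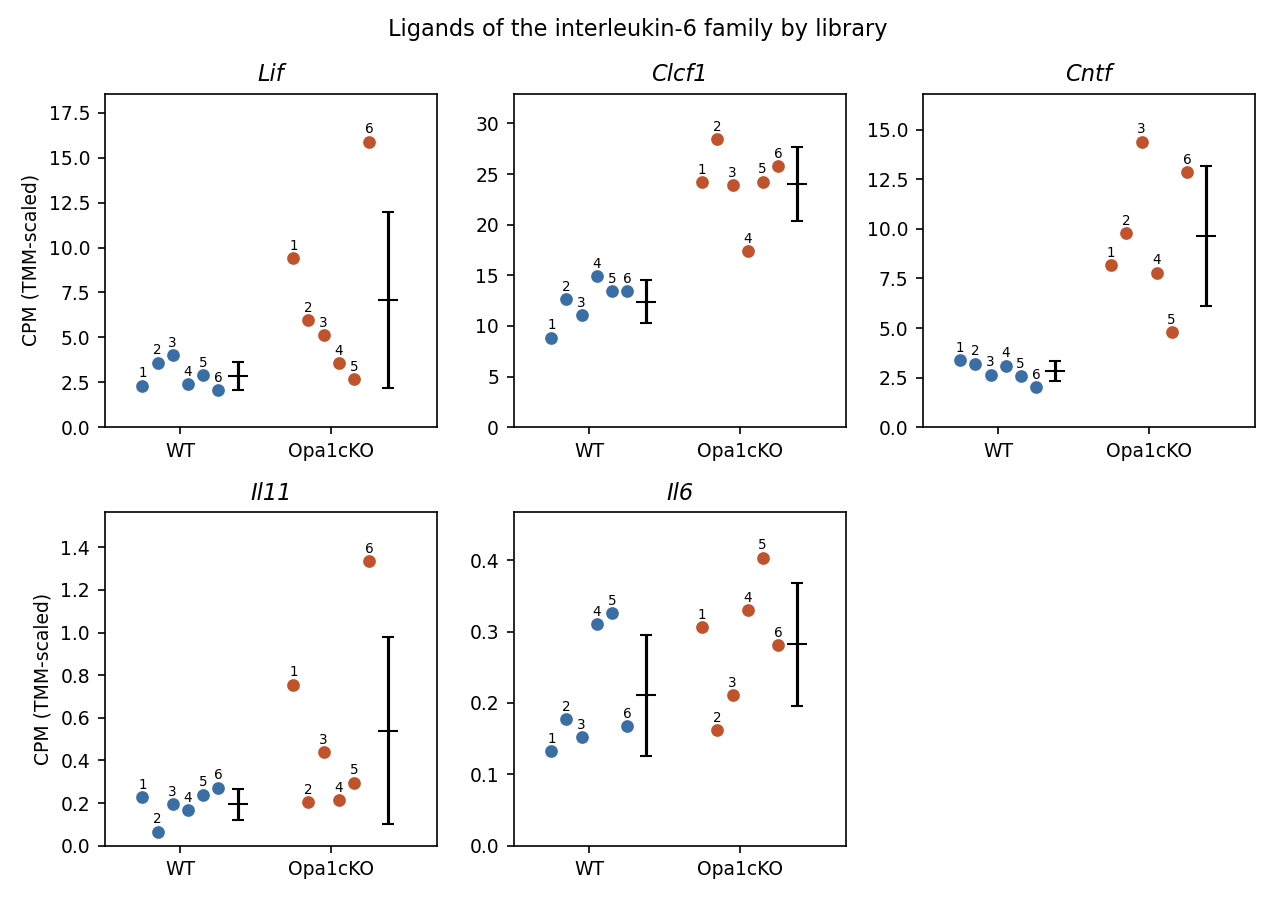
Each panel plots the level of 1 ligand-side gene in CPM (y axis, linear, TMM-scaled) for the 6 WT (blue) and 6 Opa1cKO (orange) libraries, numbered by replicate, and the black bars give mean ± SD. Clcf1 and Cntf separate the genotypes completely, while Lif and Il11 overlap and have their highest value in Opa1cKO 6.

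Il6, the family's best known inflammatory cytokine, was close to the limit of detection. Libraries held 7 to 15 reads of Il6, which is 0.133 to 0.325 CPM in WT and 0.162 to 0.404 CPM in Opa1cKO. The ranges overlapped and Il6 was not called (log2 fold change 0.42, 95% interval -0.40 to 1.24, edgeR adjusted p = 0.529), an interval that still holds a 2-fold difference.

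The list of other ligands held 9 genes, of which 4 were tested, 2 rose and 0 fell, against 5.10% higher among all genes tested. Among those that rose was Cntf, ciliary neurotrophic factor, at 2.82 ± 0.509 CPM in WT and 9.63 ± 3.53 CPM in Opa1cKO (log2 fold change 1.82, SE 0.262, edgeR adjusted p = 0.000855). Of the exon bases of Cntf, 78.9% are shared with Zfp91, a gene on the same strand at 189 CPM in WT, so reads of the pair cannot be told apart and the Cntf value is uncertain. For Zfp91 itself the log2 fold change was 0.17 (edgeR adjusted p = 0.164). Il11, a cytokine linked to fibrosis, was at 0.194 ± 0.0725 CPM in WT and 0.540 ± 0.440 CPM in Opa1cKO, with its highest value of 1.33 CPM in Opa1cKO 6, and was not called (log2 fold change 1.50, edgeR adjusted p = 0.0804; without Opa1cKO 6, 0.72 and adjusted p = 0.496). Osm, encoding oncostatin M, had at most 0.123 CPM in any library and was not tested.

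Il6st, encoding the shared chain gp130, fell: each of the 6 Opa1cKO libraries was below all 6 WT libraries. WT libraries held 272 to 318 CPM with a median of 291, and Opa1cKO libraries 199.9 to 243 CPM with a median of 216. The highest Opa1cKO library, Opa1cKO 3, was below the lowest WT library, WT 5. The mean in Opa1cKO was 0.748 times that in WT, and the fitted log2 fold change was -0.41 (95% interval -0.58 to -0.23, SE 0.0805, edgeR adjusted p = 0.00654). Il6st was called with any 1 library left out, at log2 fold changes of -0.44 to -0.36. Il6st lies at chr13:112464070-112510086 (mm10, plus strand) and shares no exon bases with another gene.

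None of the 4 other receptor chains among the members was called. Lifr, the chain that pairs with gp130 for LIF and CLCF1, was at 371 to 486 CPM in WT and 304 to 412 CPM in Opa1cKO (log2 fold change -0.13, 95% interval -0.34 to 0.08, edgeR adjusted p = 0.442). Il11ra1, the interleukin-11 receptor, was at 18.7 ± 3.45 and 17.7 ± 3.62 CPM (log2 fold change -0.12, edgeR adjusted p = 0.704). For Lifr, 2 Opa1cKO libraries lay below the WT range, and likewise for Il11ra1, while the rest overlapped with WT.

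Osmr, the oncostatin M receptor, was at 36.6 to 61.3 CPM in WT with a median of 42.9, and at 39.2 to 125 CPM in Opa1cKO with a median of 50.6. Only Opa1cKO 3 and Opa1cKO 6 were above the WT range. Its log2 fold change was 0.55 (95% interval 0.0043 to 1.10, edgeR adjusted p = 0.194), and 0.09 without Opa1cKO 6 (edgeR adjusted p = 0.849) against 0.74 without Opa1cKO 5 (edgeR adjusted p = 0.0421). Il6ra, the interleukin-6 receptor, was at 46.9 to 61.6 CPM in WT and 53.5 to 113 CPM in Opa1cKO, and 4 of 6 Opa1cKO libraries were above every WT library. Its log2 fold change was 0.46 (95% interval 0.10 to 0.81, edgeR adjusted p = 0.0958), 0.19 without Opa1cKO 6 (edgeR adjusted p = 0.487) and 0.60 without Opa1cKO 5 (edgeR adjusted p = 0.0121). Osmr and Lifr lie 215645 bases apart on chromosome 15, on opposite strands.

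Among 6 other receptors and sheddases, 3 were tested and 0 were called, against 10.2% of all genes tested. Cntfr, the receptor that CLCF1 shares with ciliary neurotrophic factor, was at 0.882 ± 0.320 CPM in WT and 0.945 ± 0.579 CPM in Opa1cKO (edgeR adjusted p = 0.912). The others were Adam10 and Adam17, proteases that can release receptor ectodomains, at log2 fold changes of -0.24 and 0.23 (edgeR adjusted p = 0.105 and 0.103). The 3 count-table entries named Il11ra2 had 0 reads in every library.

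**Figure D2:**
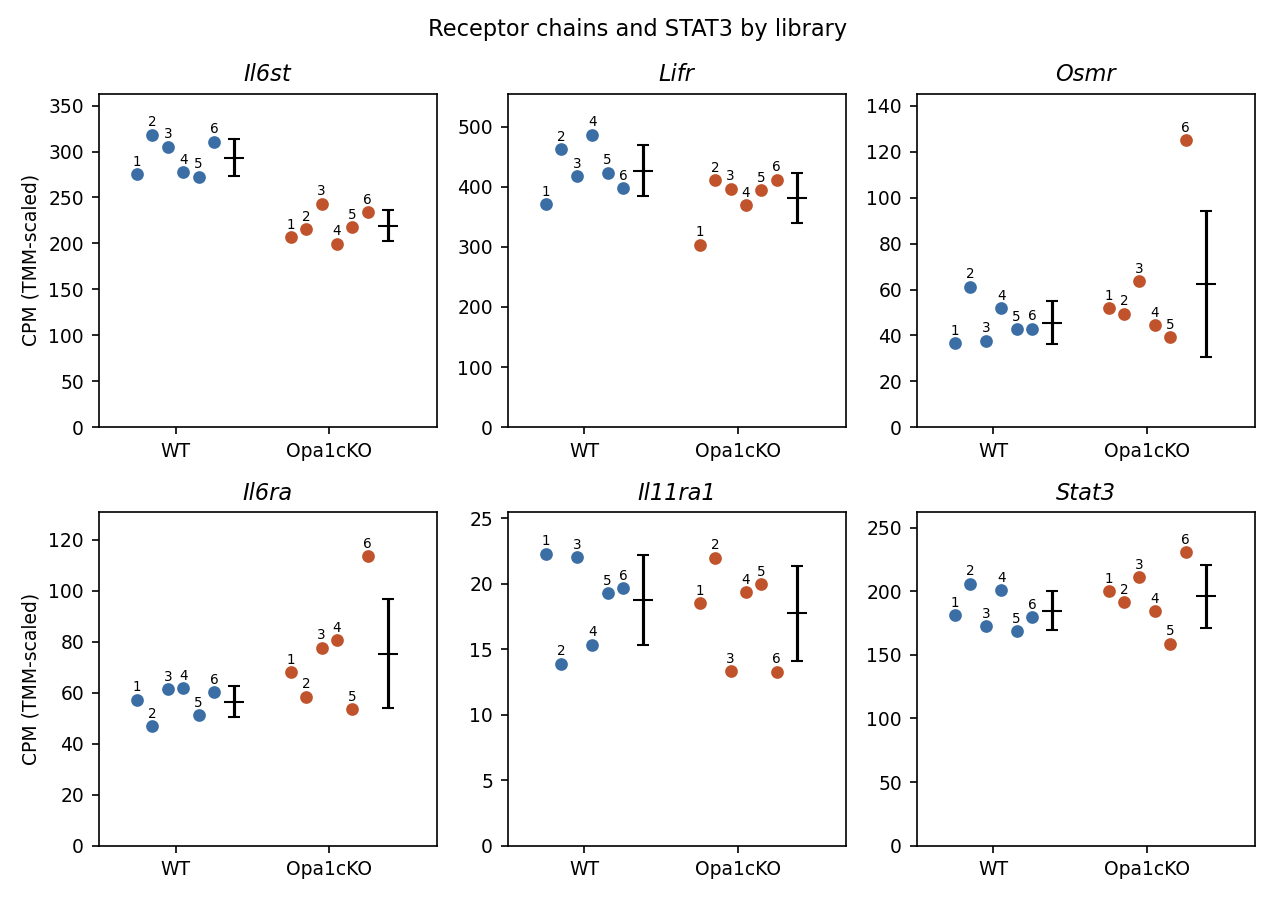
Each panel plots 1 receptor chain or Stat3 in CPM (y axis, linear, TMM-scaled) for the 6 WT (blue) and 6 Opa1cKO (orange) libraries, numbered by replicate, with mean ± SD in black. Il6st alone among these 6 genes separates the genotypes completely, and Opa1cKO 6 is the highest library for Osmr, Il6ra and Stat3.

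Stat3, the transcription factor at the end of the pathway, was at 184.7 ± 15.2 CPM in WT and 195.9 ± 24.4 CPM in Opa1cKO and was not called (log2 fold change 0.10, 95% interval -0.11 to 0.32, edgeR adjusted p = 0.550). RNA levels do not show how much STAT3 protein is phosphorylated. Of the 15 other kinases, STATs and adaptors, 14 were tested, 0 rose and 1 fell, which is 7.14% called against 10.2% of all genes tested. The gene that fell was Gab1, an adaptor that links gp130 to the MAP kinase pathway, at 130.1 ± 17.2 CPM in WT and 106.1 ± 11.1 CPM in Opa1cKO (log2 fold change -0.35, edgeR adjusted p = 0.0298). The call was lost without WT 6 (-0.29, edgeR adjusted p = 0.122), Opa1cKO 1 (-0.33, edgeR adjusted p = 0.0585) or Opa1cKO 6 (-0.30, edgeR adjusted p = 0.113). The kinases Jak1 (log2 fold change -0.14) and Jak2 (0.19) were not called, with edgeR adjusted p of 0.331 and 0.357.

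Socs3, the feedback inhibitor of gp130 signalling, varied more between libraries than any other member. WT libraries held 10.9 to 138 CPM with a median of 20.4, and Opa1cKO libraries 44.2 to 292 CPM with a median of 136. Every Opa1cKO library was above 5 of the WT libraries, whose highest value was 38.5 CPM, and WT 6 at 138 CPM lay within the Opa1cKO range. The mean was 3.85 times as high in Opa1cKO, but Socs3 was not called (log2 fold change 2.04, 95% interval 0.67 to 3.41, SE 0.618, edgeR adjusted p = 0.0631). Without WT 6 the log2 fold change was 2.78 and Socs3 was called (edgeR adjusted p = 0.0122), as it was without Opa1cKO 3 (2.28, edgeR adjusted p = 0.0278). DESeq2 also called it (2.05, adjusted p = 0.0160). Socs3 lies at chr11:117966079-117970047 (mm10, minus strand).

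The 5 genes whose profile over the 12 libraries was most like that of Socs3 were Fos, Egr1, Ier2, Rgcc and Plk3. The root mean square difference of log2 CPM, each gene centred on its own mean, was 0.212 for Fos and 0.336 for Egr1, against an SD of 1.63 for Socs3 itself. Without WT 6 the log2 fold changes of Fos, Egr1 and Ier2 were 2.91, 2.84 and 2.34 (edgeR adjusted p = 0.0116, 0.00274 and 0.0456), against 2.20, 2.04 and 1.78 with all libraries (edgeR adjusted p = 0.0572, 0.0465 and 0.083). These genes were chosen for likeness to Socs3 over the same libraries, so their closeness to it and this shift follow in part from the choice. Fos, Egr1 and Ier2 belong to a list of 13 immediate early and heat shock genes that can respond within minutes to handling of tissue. That list summed to 920 to 6921 CPM in WT and 2519 to 15795 CPM in Opa1cKO (two-sided exact permutation p = 0.0108, adjusted over 10 marker lists 0.0541), and 5 of its 13 genes were called higher (38.5%, against 5.10% of all genes tested) and 0 lower. Libraries took nearly the same order in both measures: Opa1cKO 4, Opa1cKO 5 and Opa1cKO 1 ranked 1, 2 and 3 in Socs3 and in the summed list, and WT 3 ranked 12 in both. WT 6, the WT library with the highest Socs3, also had the highest sum of the WT libraries. The part of handling in the Socs3 values was not tested.

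**Figure D3:**
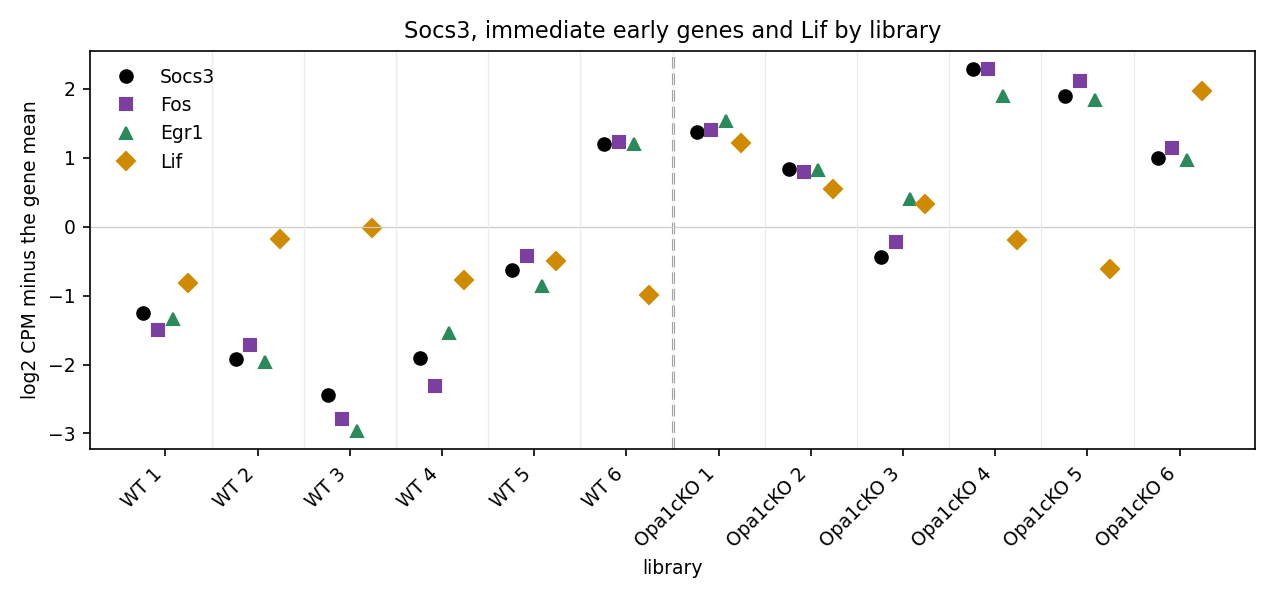
Points give log2 CPM minus the gene's mean over the 12 libraries (y axis) for Socs3, Fos, Egr1 and Lif in each library (x axis), with WT left and Opa1cKO right of the dashed line. Socs3, Fos and Egr1 lie close together in every library, WT 6 included, as Fos and Egr1 were chosen for likeness to Socs3. Lif, which was not so chosen, does not follow them, as in WT 6 and Opa1cKO 4.

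Of 20 other inhibitors of the pathway listed, 19 were in the count table and 17 were tested, of which 1 rose and 0 fell. That is 5.88% called against 10.2% of all genes tested, or 5.10% for genes higher. Socs7, a member of the SOCS family, was at 55.7 to 63.5 CPM in WT and 68.5 to 79.1 CPM in Opa1cKO with no overlap (log2 fold change 0.29, SE 0.0707, edgeR adjusted p = 0.0182), and its call was lost without WT 5 (0.25, edgeR adjusted p = 0.0723) or Opa1cKO 6 (0.25, edgeR adjusted p = 0.0846). Socs1, which blocks JAK kinases directly, was at 1.20 ± 1.00 and 1.32 ± 0.653 CPM and was not called (edgeR adjusted p = 0.931).

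Genes described as STAT3 targets moved in both directions. Of 31 listed, 27 were tested, 2 rose and 3 fell, which is 18.5% called against 10.2% of all genes tested, and the median log2 fold change was 0.18. The list names genes that respond to STAT3 in other settings, and many of them have other regulators. Of those that fell, Vegfa, the endothelial growth factor, went from 640.0 ± 154 to 355.7 ± 56.7 CPM (log2 fold change -0.86, edgeR adjusted p = 0.00403), with no overlap. Steap4, a metalloreductase, went from 2.45 ± 0.339 to 0.568 ± 0.185 CPM with no overlap (-2.09, edgeR adjusted p = 0.000181). Ier3, a stress-responsive survival factor, went from 123.5 ± 30.4 to 53.9 ± 22.4 CPM (-1.40, edgeR adjusted p = 0.00101). Each of these 3 was called with any 1 library left out.

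The calls of the 2 targets that rose held in fewer of the fits with 1 library left out. Timp1, an inhibitor of matrix metalloproteinases, was at 1.32 to 3.94 CPM in WT and 2.50 to 59.6 CPM in Opa1cKO, where the highest of the other 5 libraries after Opa1cKO 6 was at 10.8 CPM. Its log2 fold change was 2.78 (edgeR adjusted p = 0.0262) and 1.22 without Opa1cKO 6 (edgeR adjusted p = 0.230); the call was also lost, at 2.67 to 2.86, without WT 1, WT 2, WT 4 or WT 6 (edgeR adjusted p from 0.0533 to 0.0566). Gadd45g, a growth arrest gene, was at 2.66 ± 1.30 and 9.28 ± 5.80 CPM (log2 fold change 1.42, edgeR adjusted p = 0.0417), and was called in 2 of the 12 fits with 1 library left out, those without WT 4 and without Opa1cKO 3.

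Across the 5 pathway lists together, 65 of 81 genes were tested, 5 rose and 4 fell, or 13.8% called against 10.2% of all genes tested. Of 23 other inflammatory cytokines and mediators, 7 were tested and 28.6% called, against 10.2% of all genes tested: 2 rose and 0 fell. They were Tnfaip6, a hyaluronan-binding protein, whose log2 fold change was 0.79 (edgeR adjusted p = 0.0155; lost without WT 5, WT 6 or Opa1cKO 6, adjusted p 0.0585 to 0.0619), and Csf1, a growth factor of macrophages, at 0.46 (edgeR adjusted p = 0.0387; 0.31 and adjusted p = 0.204 without Opa1cKO 6, and called in 4 of 12 fits with 1 library left out). Tnf had at most 0.0706 CPM in any library and Il1b at most 0.199 CPM, and neither was tested.

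**Figure D4:**
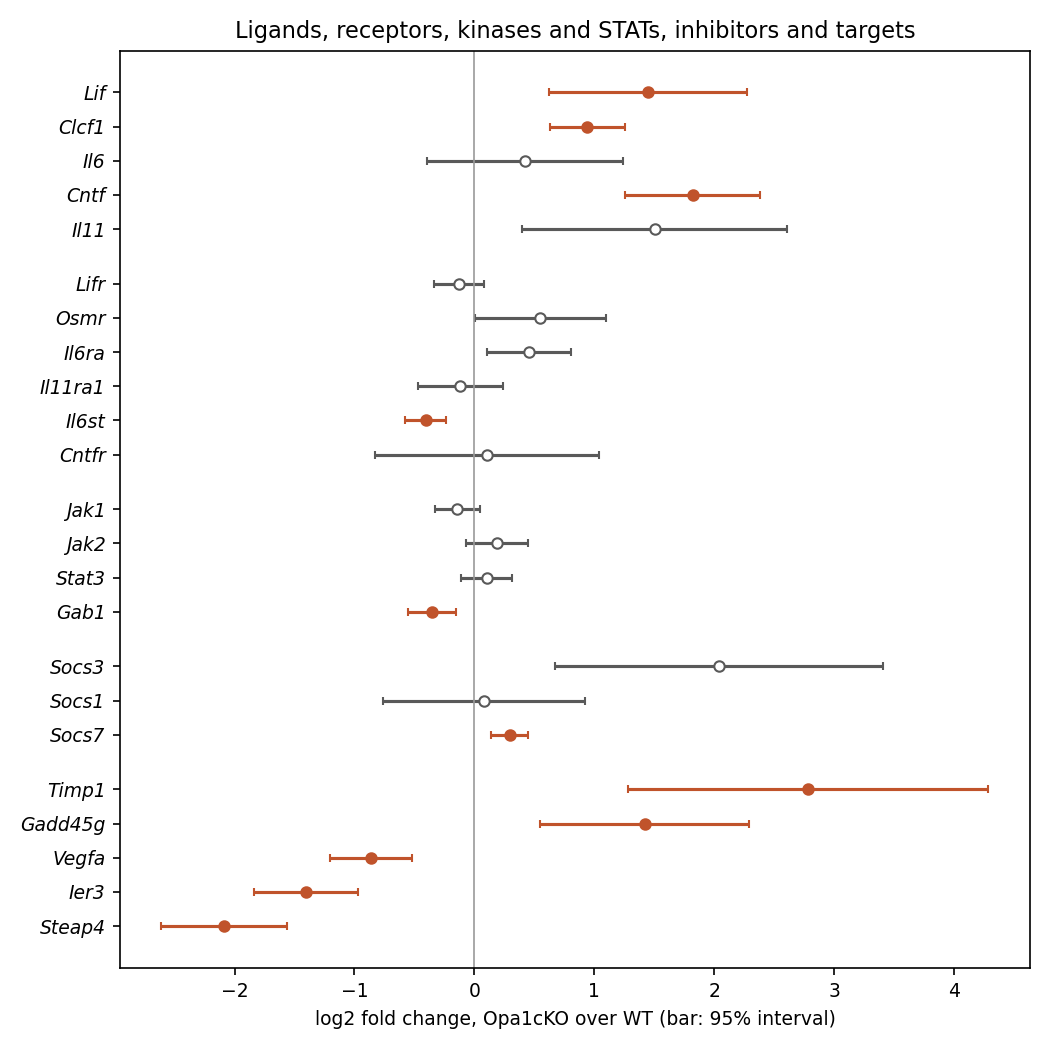
Points give the fitted log2 fold change, Opa1cKO over WT (x axis), and bars its 95% interval for ligand-side genes, receptor chains, kinases with STAT3 and an adaptor, inhibitors and the called STAT3 targets, in blocks from top to bottom. Filled orange points were called at an edgeR adjusted p below 0.05, among them Lif, Clcf1 and Il6st of the 10 members, and open points were not.

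The 5 genes most like Lif over the 12 libraries were Pkn3, Kcnn4, Cspg4, Angptl2 and Prex1, with root mean square differences of 0.333, 0.366, 0.372, 0.376 and 0.382 on the log2 scale against an SD of 0.884 for Lif. Like Lif, each had its highest value in Opa1cKO 6, and their log2 fold changes were 0.93 to 1.45. Because they were chosen for a profile like that of Lif, both features follow in part from the choice and are no separate result. Prex1, an activator of Rac GTPases, was called with any 1 library left out (log2 fold change 1.13, edgeR adjusted p = 0.00859). The other 4 were called in few fits with 1 library left out: Pkn3 in 5 of 12, and Kcnn4, Cspg4 and Angptl2 in 2 of 12 each. Without Opa1cKO 6 the log2 fold changes of Pkn3, Kcnn4 and Angptl2 were 0.52, 0.73 and 0.44, and none was called (edgeR adjusted p = 0.0802, 0.418 and 0.261). Cspg4, which also marks pericytes, went from 277 ± 53.2 to 586 ± 336 CPM (1.13, edgeR adjusted p = 0.0426), and was not called without Opa1cKO 6 (0.50, edgeR adjusted p = 0.238).

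Markers of other cell types that the dissected tissue could hold were summed per library. The annulus and fibroblast list summed to 1311 to 1945 CPM in WT and 1568 to 2640 CPM in Opa1cKO (two-sided exact permutation p = 0.0801, adjusted 0.200). Of its 8 tested genes 0 were called, against 10.2% of all genes tested. Most of that sum was Fmod, at 1405 and 1628 CPM on average, and Col1a1, at 236 and 339 CPM. The endothelial and mural list summed to 540 to 648 CPM in WT and 652 to 1504 CPM in Opa1cKO (two-sided exact permutation p = 0.00216, the smallest that 6 against 6 allows, adjusted 0.0216). Of its 10 genes 5 were tested, of which 1, Cspg4, was called higher and 0 lower. That is 20% called against 10.2% of all genes tested. Summed in TPM the ranges overlapped, 508 to 810 in WT and 513 to 1043 in Opa1cKO (two-sided exact permutation p = 0.0606, adjusted 0.202). On average the list summed to 594 CPM in WT and 913 CPM in Opa1cKO. Most of that difference was Cspg4, at 277 and 586 CPM, which was also picked above for likeness to Lif. Acta2 and Myh11 of the same list were not called, and Myh11 was lower, at 62.9 and 35.3 CPM. The list's defining endothelial genes were scarce, Pecam1 at 1.66 and 1.79 CPM and Cdh5 at 0.194 and 0.129 CPM. Macrophage markers summed to 105 to 197 CPM in WT and 97.2 to 118 CPM in Opa1cKO (two-sided exact permutation p = 0.0260, adjusted 0.0866). Of the 5 tested, Csf1r and Cd163 were lower and Cd68 higher, or 60% called against 10.2% of all genes tested. Adgre1 and Ptprc were at no more than 0.263 CPM on average in either genotype. Summed in TPM, the macrophage list was instead higher in Opa1cKO, 198 against 157 TPM on average. Of the lymphocyte list, 2 of 9 genes had 0 reads in every library and none was tested. Their part in the Lif and Timp1 values was not tested.

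Members were also ranked by TPM (reads per length of transcript, scaled to library size), which allows for gene length. In WT the order of mean TPM was Lifr at 181, Il6st at 120.3, Stat3 at 88.4, Socs3 at 63.6, Il6ra at 29.7, Il11ra1 at 19.0, Osmr at 17.2, Clcf1 at 14.9, Lif at 3.00 and Il6 at 0.400. The ranges of the libraries overlapped between Stat3 and Socs3, Socs3 and Il6ra, Il11ra1 and Osmr, and Osmr and Clcf1, and did not overlap between the other neighbours. In Opa1cKO, Socs3 came first at 248 TPM with a range overlapping that of Lifr at 163, Il6st at 91.2 came after Stat3 at 95.02 with overlapping ranges, and Clcf1 at 29.2 was ahead of Osmr at 23.9 and Il11ra1 at 18.3. Lif at 7.64 TPM and Il6 at 0.535 TPM stayed last. On this scale Lif remained below Clcf1 in either genotype.

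Within each labelled sex, all 10 members had the same direction in females and males. Only Clcf1 and Socs3 were called, both in labelled females. Some values were near 0, as for Il6 in labelled males (0.03, edgeR adjusted p = 0.987) and Stat3 in labelled females (0.04, edgeR adjusted p = 0.914). The groups were small: WT held 4 labelled females and 2 males, and Opa1cKO 2 and 4. The values within each labelled sex in this paragraph come from 1 fit of all 12 libraries in 4 groups of labelled sex and genotype. Fits of 1 labelled sex alone are given further below and differ from these. Both labelled-male WT libraries, WT 5 and WT 6, had sex-linked reads of females, so labelled males held no WT library with male reads. In labelled females and males the log2 fold change of Clcf1 was 1.08 and 0.81 (edgeR adjusted p = 0.0141 and 0.0838), that of Il6st -0.38 and -0.43 (0.0907 and 0.0870), and that of Lif 1.60 and 1.28 (0.117 and 0.356). For Socs3 it was 3.34 in labelled females (edgeR adjusted p = 0.0291) and 0.76 in labelled males (0.692), and the difference between them was not called (edgeR adjusted p = 0.797). WT 6, the WT library with the highest Socs3 at 138 CPM, is 1 of the 2 labelled-male WT libraries. EdgeR called 0 of 15229 genes for the difference between labelled sexes, with 899 genes (5.90%) at an unadjusted p below 0.05, and DESeq2 called 9. Over all genes the share called in the fit of 4 groups was 4.14% in labelled females and 1.99% in labelled males. Fits of 1 labelled sex alone called 167 genes higher and 133 lower in females, and 161 and 258 in males. Which labelled sex had more genes called therefore depended on the fit. Without the 4 libraries whose sex-linked reads contradict their label, Clcf1 was still called, Lif was at 1.49 (edgeR adjusted p = 0.228), Il6st at -0.41 (0.143), and Socs3 at 3.31, now called (0.0320). With sex taken from the reads in place of the label, Lif was at 1.37 (edgeR adjusted p = 0.0518), while Clcf1 and Il6st were called.

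**Figure D5:**
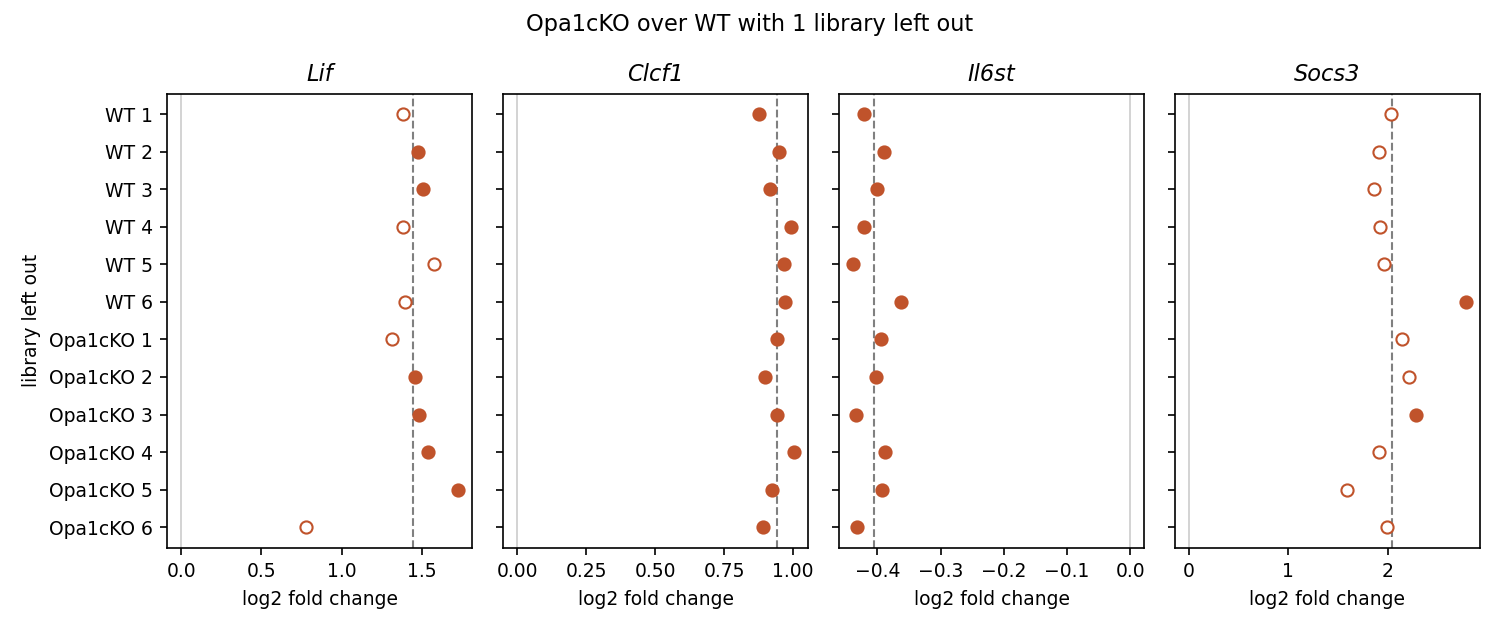
Each panel gives the log2 fold change, Opa1cKO over WT (x axis), of 1 member with the library on the y axis left out. Filled points were called at an edgeR adjusted p below 0.05, open points were not, and the dashed line marks the value with all 12 libraries. Clcf1 and Il6st were called in 12 of 12 such fits, Lif in 6 and Socs3 in 2.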

How the data were processed

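Whole-number read counts of 32285 genes in 12 libraries were deposited by the authors, together with a TPM table of 32128 symbols. Library construction, per the labels, used a stranded kit that removes ribosomal RNA, an input of 50 ng and 14 PCR cycles. STAR 2.7.11b and the mm10 build are named in the submitters' processing notes. How reads were assigned to genes, and whether by strand, is not given in those notes or in any of the sources used here. Cntf, which shares most of its exon bases, is therefore marked as uncertain. Smaller overlaps with opposite-strand genes of the count table were 2.80% of the exon bases of Il6ra, 0.756% of Stat3, 0.179% of Il11ra1 and 5.23% of Gab1. Those of Jak1, Pkn3 and Plk3 were at most 3.32%. Totals of 37268242 to 56618266 counts set the depth, and without molecular identifiers reads may include PCR duplicates.

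The main test was edgeR 4.0.16 in R 4.3.3 (TMM, filterByExpr with a minimum count of 10, robust quasi-likelihood test with labelled sex and genotype as terms, Benjamini-Hochberg adjustment over 15229 genes, threshold 0.05). Labelled sex was a term because WT held 4 labelled females and 2 males and Opa1cKO 2 and 4. The term follows the labels, which sex-linked reads contradict in 4 of the 12 libraries. By those reads WT held 5 females and 1 male, and Opa1cKO 3 and 3. Library sums were compared by exact permutation. TPM served for levels between genes and as an alternative unit. Alternatives were DESeq2 1.42.0, limma 3.58.1 (voom with and without quality weights, and log2 TPM with pseudocounts of 1 and 0.1), other scalings, filters, thresholds and sex terms, a replicate block, and libraries left out. The fits were tested on simulated counts. Positions come from GENCODE M21, which held 32235 of the 32285 identifiers.

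The members, the gene lists and the rule for named genes were chosen with earlier results of these data known. The rule named Opa1, the members, up to 6 called genes per pathway list by p, 9 textbook partners of the members, up to 4 called cytokines by p, and the 5 genes most like Lif and like Socs3 with a mean of at least 1 CPM. Adam10, Adam17, Tnf, Il1b, Zfp91, the cell type markers, Serpina3n and Lcn2 were named after their values were seen. A few genes enter the list counts without their own values, which are not reported here. Each library is labelled as 1 mouse.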

Additional observations from a re-analysis of the deposited data

Results flagged for a closer look

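Of 72 groups of 6 libraries examined, 14 had 1 library set apart from the other 5 by more than Dixon's 95% critical value, which chance passes in about 1 of 20 groups. Of the 14, 8 are genes chosen here because their profile was most like that of Lif or Socs3, so the cases are not independent and their number cannot be read against that rate. Opa1cKO 6 accounted for 6 of the 14 and WT 6 for 6. In Opa1cKO 6, Timp1 stood at 59.6 CPM (next highest 10.8), Osmr at 125 CPM (63.5), Pkn3 at 42.5 CPM (14.0), Cspg4 at 1220.2 CPM (626), Prex1 at 82.2 CPM (46.9) and Jak2 at 78.5 CPM (55.1).

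In WT 6, Socs3 stood at 138 CPM (next highest WT library 38.5), Fos at 2050.1 CPM (654), Egr1 at 988 CPM (238), Ier2 at 235 CPM (78.4), Rgcc at 20.8 CPM (6.68) and Plk3 at 23.3 CPM (9.87). The other 2 cases were Jak1 in Opa1cKO 3 at 163 CPM (next 139.5) and Csf1 in WT 4 at 19.1 CPM (16.9).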

How the results depend on the processing

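Clcf1 was called in 28 of 29 alternatives (log2 fold change 0.81 to 1.20), Il6st in 25 (-0.44 to -0.36), Lif in 12 (0.44 to 1.73) and Socs3 in 8 (0.76 to 3.34), and each kept its sign in all 29. Clcf1 missed the threshold in labelled males only (0.81, adjusted p = 0.0702). Il6st missed it without the 4 libraries of contradicted sex (-0.41, adjusted p = 0.143), in labelled females (-0.37, 0.186) or males only (-0.43, 0.104), and without Opa1cKO 6 and WT 6 together (-0.38, 0.0930), the last an alternative chosen after seeing the data. All 4 have fewer libraries. With fewer libraries, Lif missed it without the 4 contradicted libraries (1.49), in labelled females (1.60) or males only (1.30), and without Opa1cKO 6 and WT 6 together (0.44, adjusted p = 0.739). With all 12 libraries Lif missed it with sex from the reads (1.37), limma-voom (1.21), quality weights (1.19), no filter (1.44), and log2 TPM with pseudocounts of 1 (1.00) and 0.1 (1.17); the cause was not tested.

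With 1 library left out, the log2 fold change of Lif was 0.78 to 1.73, of Clcf1 0.88 to 1.00 and of Il6st -0.44 to -0.36; 323 to 1002 genes were higher and 496 to 1008 lower, 1 to 4 members were higher and 1 lower, and 2 to 10 other pathway genes were higher and 3 to 5 lower. The genotype by labelled sex term gave 0 to 22 genes. The counts of 323 and 496 came without Opa1cKO 6, those without WT 6 were 463 and 510, and the 22 genes without Opa1cKO 5.

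Against 777 genes higher and 781 lower with all libraries, 188 and 137 were called without the contradicted libraries. Fits of labelled females alone gave 167 and 133, and of labelled males alone 161 and 258. Without Opa1cKO 6 and WT 6 there were 113 and 256, and at a threshold of 0.01 there were 228 and 326. DESeq2 called 1222 higher, a threshold of 0.1 gave 1302, and DESeq2 gave 9 for the sex difference. In place of 2 members, 1 was higher with sex from the reads, limma-voom, quality weights, no filter, either TPM pseudocount and the 0.01 threshold, 0 in labelled males, and 4 at the 0.1 threshold. In place of 1 member, 0 were lower without the contradicted libraries, in either labelled sex alone and without Opa1cKO 6 and WT 6. In place of 5 other pathway genes, 8 were higher with sex from the reads or DESeq2, 3 with limma-voom or no filter, 2 without the contradicted libraries, in either labelled sex or at 0.01, 1 without Opa1cKO 6 and WT 6, and 10 at 0.1. In place of 4, 0 were lower without the contradicted libraries, 1 in labelled females and 2 in labelled males. The macrophage sum difference turned from -33.02 CPM to 41.3 in TPM, and the neutrophil sum difference of -1.36 CPM ranged from -2.94 to 2.79 with 1 library left out, the last without WT 2.

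Replicate numbers did not pair the samples: same-numbered libraries correlated at -0.217 to 0.043 in their deviations from the group means, and 0 of 6 matched best with their own number. With the replicate block in place of labelled sex, 601 genes were higher and 668 lower, Lif was not called (1.07, adjusted p = 0.140), Socs3 was (2.37, 0.0389), and Clcf1 and Il6st were called (0.96 and -0.42). Other scalings moved the median of all genes by at most 0.0114 on the log2 scale. Il6, at 7 to 15 reads per library, is limited by depth. No replicate block was fitted with the sex interaction.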

Other observations

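Outside the called genes, 2 genes of the STAT3 target list, chosen here after their values were seen, were high in a single library. Serpina3n, an acute-phase protease inhibitor, was at 186 CPM in Opa1cKO 6 and at most 20.3 CPM in the other 11 libraries, and Lcn2, the iron-sequestering protein lipocalin 2, at 17.6 CPM in Opa1cKO 6 and at most 2.95 CPM elsewhere. Of the Opa1cKO libraries, 3 lay above every WT library for Serpina3n and 2 for Lcn2, and 1 lay below every WT library for each. Neither gene was called between genotypes (edgeR adjusted p = 0.236 for Serpina3n and 0.0881 for Lcn2). Socs3 in Opa1cKO 6, at 118 CPM, ranked 5 of the 12 libraries. The library with the highest Lif, Osmr and Timp1 was therefore not the one with the highest Socs3, which was Opa1cKO 4 with 3.56 CPM of Lif.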
